A study of Medicago sativa with 12 samples.

Results

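The salicylate signalling genes of alfalfa (Medicago sativa) were taken as the gene models whose annotation text names NPR1, NPR3 or NPR5, a TGA transcription factor, or pathogenesis-related protein 1 (PR1, also written PR-1). The text matched 165 of the 164632 gene models in the table. They comprised 5 NPR1 models, 1 NPR1 interactor, 7 NPR3, 11 NPR5, 72 TGA and 50 PR1 models. The remaining 19 matched only because their text reads "class-10 pathogenesis-related protein 1". Class-10 pathogenesis-related proteins (PR10) belong to another protein family than PR1, and they were kept as a group of their own. The choice used annotation text only and no measured value.

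RNA was sequenced from leaves of alfalfa cultivar zhongmu 1# grown in vermiculite. The control plants (CK) received nutrient solution alone, a second set (M) melatonin, a further set (S) NaCl at 150 mM, and the last (SM) both agents, where 50 μM was the melatonin concentration that the study's soil pre-experiment selected. Each group held 3 libraries, described by the study as biological replicates, so the 4 groups gave 12 libraries. The sampling time of the sequenced leaves is not given in the labels, and a population cultivar such as this one need not hold identical alleles in every plant.

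Salicylic acid is the hormone of defence against pathogens that feed on living tissue. In Arabidopsis, NPR1 is the co-activator that carries the signal into the nucleus, and NPR3 and NPR4 are its paralogues, which bind salicylic acid and act as repressors of defence genes. These proteins bind no DNA themselves but work through TGA factors, basic leucine zipper proteins that sit on the promoters of target genes. PR1, a small secreted protein of the CAP superfamily, is the standard marker of the activated pathway. PR10 proteins are cytosolic, related to the birch allergen Bet v 1, and in legumes are induced by pathogens and by several stresses. No sequence is shown for these genes because none was at hand for this genome build.

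The total count per library ranged from 45862158 to 57192229. Leaf markers (small subunits of Rubisco and chlorophyll a-b binding proteins) were abundant in every library, and 91 of the 101 leaf marker models held a read. Their summed FPKM (fragments per kilobase of model, scaled to library size) was 7148 to 23713 without salt and 27359 to 48118 with salt, so the 2 ranges did not overlap. The summed senescence list was 2.55 to 6.82 FPKM without salt and 7.91 to 11.2 with salt. Nodule markers were at 1.59 to 43.3 FPKM without salt and 0.42 to 2.3 with salt, with the 2 highest sums in M2 (43.3) and CK1 (33.6), and only 15 of the 83 models held a read. Seed storage proteins summed to 54.3 to 83.1 FPKM without salt and 25.3 to 51.8 with salt, with 37 of 115 models read, and root endodermis markers never passed 1.31, with 9 of 26 models read. The leaf, senescence and seed storage ranges were apart with and without salt, as those of PR10 and NPR3 were, the nodule ranges overlapped, and the root endodermis list was near 0 in all libraries. The part of these lists in the results was not tested. In whole leaves, fewer cells of a type and less RNA per cell cannot be told apart.

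Of the 165 models, 51 held no count in any library and 114 held at least 1. A mean of at least 1 FPKM over the 12 libraries, the level required for testing, was reached by 50 models: all 7 NPR3, 24 TGA, 4 PR1 and 15 PR10 models. Of these 50, 35 reached the level both with and without salt, 11 only without salt (8 PR10, 2 PR1 and 1 TGA) and 4, all TGA, only with salt. Genes of the last 2 kinds could enter the test through the side where they are high, so the salt counts below are given also for the 35. Models on the copies of a chromosome (2.1 to 2.4, for example) can be near-identical, and how reads that fit several of them were shared out is not stated. Counts summed over all models with the same annotation were therefore tested as well, which left 18 of 33 annotations at the required level.

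Across the families, salt went with a lower level of PR10, PR1 and NPR3 and with changes of TGA that differed in direction between kinds (plot of the summed levels). The summed PR10 level was 196 ± 100.5 FPKM in CK (mean ± SD, n = 3 here and below) and 203 ± 123 in M, against 10.8 ± 4.38 in S and 16.5 ± 9.1 in SM. PR1 stood at 111 ± 105, 79.0 ± 58.4, 13.6 ± 3.43 and 8.85 ± 4.69 in the same order. NPR3 had 64.8 ± 6.42, 78.9 ± 38.1, 35.3 ± 10.2 and 37.6 ± 4.995. The TGA sum went from 380 ± 48.7 in CK and 396 ± 15.7 in M to 294 ± 51.9 in S and 288 ± 26.8 in SM. The ranges with and without salt were apart for PR10 (5.75 to 24.4 against 79.2 to 325) and for NPR3 (25.0 to 45.4 against 52.9 to 123). For PR1 the highest salt library (16.4) just passed the lowest one without salt (16.0, in M1), and for TGA the ranges also met (251 to 352 against 326 to 421).

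**Figure D1:**
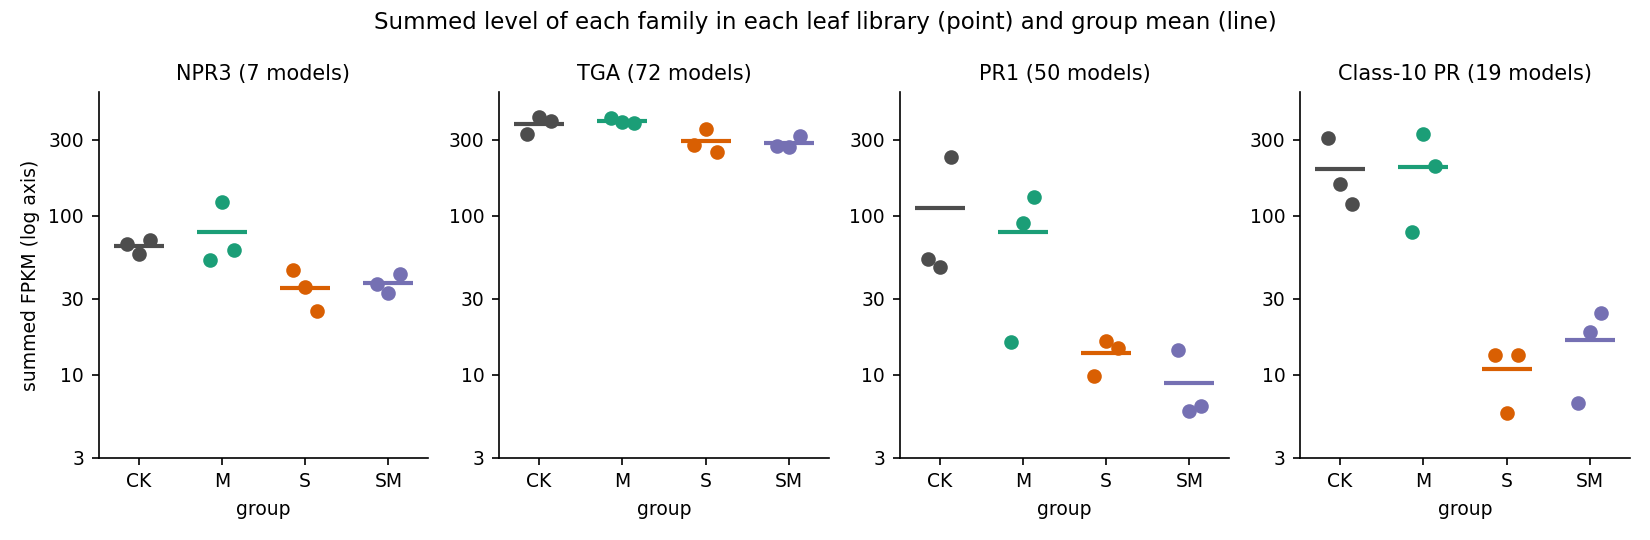
Summed FPKM (log axis) of the NPR3, TGA, PR1 and class-10 PR models in each of the 12 libraries, by group (CK, M, S, SM). Points are libraries and lines are group means. The class-10 PR sums were at most 24.4 in the 6 salt libraries and at least 79.2 in the 6 others.

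Between single models, a model counts as changed where it was at least 2-fold different, in either direction, and its unadjusted p was under 0.05 in edgeR's quasi-likelihood test, the thresholds the study used, and the Benjamini-Hochberg adjusted p over all 50931 models tested is given beside it. Salt alone (S vs. CK) moved 17 of the 50 models past both thresholds, beside 14.2% of all tested models: 2 were higher, where the background is 7.79%, and 15 lower, where it is 6.41%. With both agents (SM vs. CK) 21 passed, beside 11.6% of all, 2 higher (background 6.16%) and 19 lower (5.46%). Among the 35 models with the required level on both sides, the counts were 2 higher and 7 lower with salt alone and 2 higher and 10 lower with both agents. Of all 44493 models with the level on both sides, 3078 passed higher and 2457 lower with salt alone. With both agents, 2445 of the 44493 passed higher and 2020 lower. The overall salt effect, 6 libraries with salt (S and SM) against 6 without (CK and M), gave 23 models beside 16.0% of all, 4 higher (background 7.92%) and 19 lower (8.12%), with 3 and 10 of them among the 35. Among the 44493 models, 2865 passed higher and 2756 lower. At an adjusted p below 0.05, 14 models passed for the overall salt effect (background 6.4%), 7 of them among the 35, and 2 in S vs. CK (1.54%), 1 of them among the 35. The 7 were 1 higher and 6 lower, where 1342 of the 44493 were higher and 1133 lower. In S vs. CK, 410 of the 44493 were higher and 231 lower. The 14 became 6 to 11 when 1 library was left out (11 without M1, 10 without SM3, 9 without CK1 or S1, 8 without CK2, S2 or SM2, 7 without CK3, M2, M3 or SM1, and 6 without S3), and the 2 became 1 without CK3 and 0 without any other of the S and CK libraries. DESeq2 gave 25 and 16, where 8345 and 5375 of all 50931 models passed by DESeq2. By edgeR 0 did in SM vs. CK (background 0.342%), where 21 had an unadjusted p below 0.05. DESeq2 gave 11 at an adjusted p below 0.05 in SM vs. CK, beside 3759 of all 50931 models. The median log2 fold change of the 50 was -0.95 for the overall salt effect, against 0.03 over all models tested. The 50 include 11 models that reached the level only without salt and 4 only with salt, so the filter can shift this median. Both comparisons with CK use the same 3 control libraries. Leaving out SM1 or SM2 lowered the SM vs. CK count from 21 to 13.

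**Figure D2:**
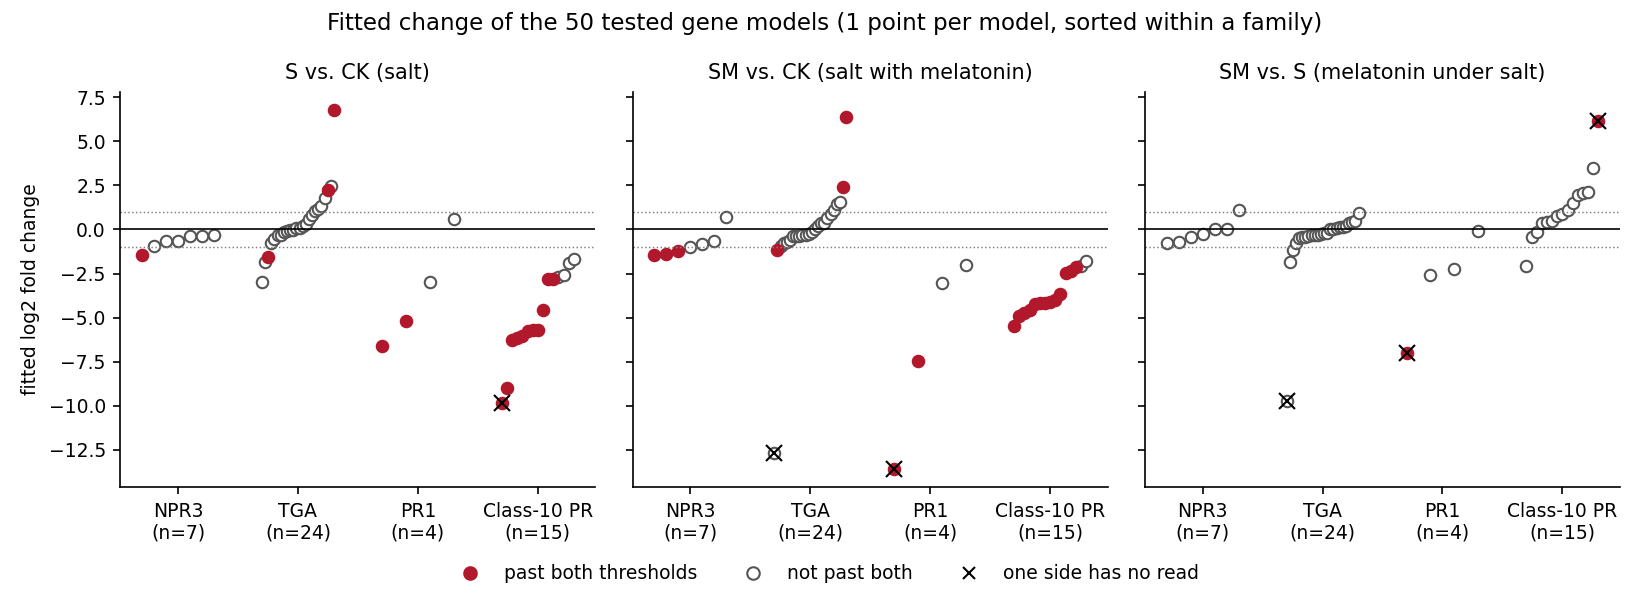
Fitted log2 fold change of the 50 tested models for S and SM against CK and for SM against S, by family, with models sorted within a family. Filled points passed both thresholds, crosses mark models with no read on 1 side, whose fitted value is no measure of size, and dotted lines mark a 2-fold change. The 15 class-10 PR models were all fitted below 0 in the 2 comparisons with CK.

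The receptors came first in the pathway, and NPR3 was the only readable one of them. None of the 5 NPR1 models, 4 on chromosome 2 and 1 on chromosome 8, held a count in any of the 12 libraries, so NPR1 was not detectable in these tables. The NPR1 interactor MS.gene07344 was close to absent, with 3.23 FPKM in M2 as its highest value and a mean of 0.428. NPR5, whose legume relatives shape nodules and stipules rather than defence, had 11 models that all held a read and none at the required level. The highest of them, MS.gene38767, averaged 0.217 FPKM and reached 0.683 in CK3.

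All 7 NPR3 models were fitted lower in S vs. CK and for the overall salt effect, and 6 of 7 in SM vs. CK. By these comparisons 1, 3 and 3 passed, and all 7 had the required level with and without salt. The most abundant, MS.gene74598 (chromosome 2.3, 60502805 to 60506996), was at 18.2, 20.1 and 33.1 FPKM in CK, 15.8, 11.2 and 15.2 in M, 7.78, 12.5 and 4.96 in S, and 9.04, 7.77 and 9.5 in SM. Every S and SM library lay below every CK library, whereas M2 (11.2) lay below S2 (12.5). MS.gene74598 was lower by log2 fold changes of -1.45 ± 0.37 (SE) in S vs. CK (adjusted p = 0.0878), -1.43 ± 0.37 with both agents (adjusted p = 0.135) and -1.07 ± 0.26 for the overall salt effect (adjusted p = 0.0408, edgeR's quasi-likelihood test). Without CK3 the last of these was -0.93 and without S3 -0.96, both short of the fold threshold. The adjusted p of this last comparison stayed below 0.05 in 3 of the 12 fits that left out 1 library.

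The other 2 NPR3 models that passed lie on chromosome 5. MS.gene017050 (5.1) was at 5.02, 7.71 and 9.8 FPKM in CK, 4.63, 8.74 and 8.36 in M, 4.13, 5.2 and 2.08 in S, and 2.49, 2.68 and 4.42 in SM. It fell in SM vs. CK (log2 fold change -1.23 ± 0.45, adjusted p = 0.279; lost without CK3, -1.03, SM1, -1.08, or SM2, -1.11) and for the overall salt effect (-1.06 ± 0.32, adjusted p = 0.0822), where leaving out CK3 (-0.96), M3 (-0.99), S3 (-0.94), SM1 (-0.99) or SM2 (just under 2-fold) ended the call. MS.gene48017 (5.2) was at 2.42, 4.51 and 2.53 FPKM in CK, 3.49, 4.4 and 2.64 in M, 2.6, 1.43 and 1.78 in S, and 1.2, 0.503 and 1.85 in SM. Its fall was -1.41 ± 0.53 in SM vs. CK (adjusted p = 0.285), where the p missed the threshold without CK2 (-1.07) or SM2 (-1.05), and -1.1 ± 0.37 for the overall salt effect (adjusted p = 0.114), and the latter fell short of the fold threshold without CK2 (-0.94) or SM2 (-0.92). All 3 SM libraries lay below all 3 CK libraries for both genes, while the S and CK libraries overlapped.

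The 4 NPR3 models that did not pass had overall salt log2 fold changes from -0.98 for MS.gene038265 to -0.57 for MS.gene003232. MS.gene003232 (chromosome 2.1) was uneven between libraries: it was at 17.7, 0 and 0 FPKM in CK, 0, 38 and 14.3 in M, 7.47, 1.09 and 4.94 in S, and 12.9, 7.64 and 9.39 in SM. Zeros thus fell in 3 of the 6 libraries without salt and in none with salt. Summed by annotation, the 4 models named NPR3 fell by 1.04 ± 0.26 on the log2 scale for the overall salt effect (adjusted p = 0.0173), and this fell short of a 2-fold change without CK2 (-0.99), CK3 (-0.97), M2 (-0.89), S2 (-0.97), S3 (-0.92), SM1 (-0.96) or SM2 (-0.98). The 3 named NPR3 isoform X1 had a log2 difference of -0.996 ± 0.23 (adjusted p = 0.01), just short of a 2-fold change. Within the M group the NPR3 sum of 123 FPKM stood in M2, the library with the lowest leaf marker sum.

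TGA factors, the DNA-binding partners, were read from 62 of 72 models, and 24 models were tested. The most abundant kinds were TGA2.2 and TGA2.3, whose Arabidopsis counterparts form the clade required for PR1 induction. TGA2.2 summed to 150.2 ± 16.2 FPKM in CK and 158 ± 21.8 in M, then 119 ± 35.2 in S and 108 ± 11.3 in SM. TGA2.3 summed to 160.3 ± 26.2, 159 ± 26.9, 73.3 ± 25.1 and 91.3 ± 20.02. TGA1 (24.2 to 32.1 between group means) and TGA4 (22.7 to 26.8), whose counterparts form a separate Arabidopsis clade, had no tested model past the thresholds with salt. TGA10 reached at most 0.852 FPKM in sum. TGA9 reached at most 1.44 in the libraries other than S3, where the sum was 17.7, of which MS.gene03842 gave 10.7.

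TGA2.3 was the TGA kind with a model past the thresholds in the lower direction. The model MS.gene38759 (chromosome 7.4, 18954704 to 18958942) had 48.7, 72.4 and 71.1 FPKM in CK, 42.9, 35.2 and 32 in M, 24.3, 27.2 and 12.2 in S, and 43.2, 22.6 and 18 in SM. It fell in S vs. CK (log2 fold change -1.56 ± 0.4, adjusted p = 0.0876) and with both agents (-1.19 ± 0.4, adjusted p = 0.229), where the value without SM3 was -0.95, short of 2-fold. For the overall salt effect it did not pass (-0.96 ± 0.28, adjusted p = 0.0702). All S and SM libraries lay below all CK libraries, but SM1 (43.2) lay above every M library, and all M libraries also lay below all CK libraries. Summed over 7 models, the annotation TGA2.3 isoform X1 was lower by -0.99 ± 0.23 in S vs. CK (adjusted p = 0.0196) and -0.75 ± 0.16 overall (adjusted p = 0.0079), both short of a 2-fold change. MS.gene017751, a TGA2.3 isoform X2 model, was at 28.9 FPKM in CK2, 3.29 in CK3, 28.5 in M1 and 4.06 in S2 and at 0 in the other 8 libraries. The most abundant TGA model of all, MS.gene61762 (TGA2.2, chromosome 8.4), had 58.1, 96.4 and 76.2 FPKM in CK, 74.5, 18.4 and 48 in M, 60.6, 80.7 and 14 in S, and 47.9, 57.4 and 34.4 in SM, and its overall salt log2 fold change was -0.28 ± 0.44 (adjusted p = 0.814).

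TGA3 and TGA7 went the other way. TGA3 summed to 5.62 ± 1.25 FPKM in CK and 6.36 ± 2.03 in M, against 16.7 ± 1.8 in S and 13.2 ± 5.31 in SM, and the lowest salt library (9.6) lay above the highest library without salt (7.89). The 8 models of the annotation TGA3 isoform X2, summed, rose by log2 fold changes of 1.5 ± 0.32 in S vs. CK (adjusted p = 0.0134), 1.16 ± 0.32 with both agents (adjusted p = 0.0526, and 0.79 without SM2) and 1.31 ± 0.23 for the overall salt effect (adjusted p = 0.00244). MS.gene010294 (chromosome 5.4), the largest single TGA3 model, was at 0.208, 2.41 and 1.04 FPKM in CK, 3.48, 1.83 and 0.811 in M, 9.63, 4.52 and 3.01 in S, and 2.63, 11.3 and 5.72 in SM. It rose in S vs. CK (2.25 ± 0.92, adjusted p = 0.26), with both agents (2.4 ± 0.92, adjusted p = 0.299) and for the overall salt effect (1.98 ± 0.64, adjusted p = 0.101). Its S and SM libraries were all above its CK libraries. Its call for salt alone was lost without CK1 (1.73), CK3 (2.12) or S1 (1.63) and for both agents without CK1 (1.88), CK3 (2.27) or SM2 (1.76).

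A second TGA3 model and a TGA7 model passed only for the overall salt effect. MS.gene053703 (TGA3, chromosome 5.1) had 0.832, 1.61 and 0.359 FPKM in CK, 1.28, 1.58 and 0.52 in M, 2, 1.88 and 2.28 in S, and 4.2, 1.18 and 2.96 in SM, an overall log2 fold change of 1.25 ± 0.49 (adjusted p = 0.171). It lost its call without CK1 (1.19), CK3 (1.05), M3 (1.07), S3 (1.18) or SM1 (1.03). The neighbouring TGA7 model MS.gene053704 had 0.334, 0.252 and 0.985 FPKM in CK, 0.481, 0.54 and 0.17 in M, 0.991, 0.187 and 4.08 in S, and 2.67, 1.23 and 0.404 in SM. Its overall log2 fold change of 1.83 ± 0.79 (adjusted p = 0.21) dropped to 1.02 without S3 and passed in only 4 of the 12 fits that left out 1 library. TGA3 and TGA7 models stand side by side on the chromosomes: 8 TGA3-TGA7 pairs, from 9 TGA3 and 11 TGA7 models, had gaps of 1383 to 4024 bases.

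The clearest rise belonged to 1 TGA7 model. MS.gene29115 (chromosome 3.4, 72199118 to 72201612) was at 0, 0 and 0.302 FPKM in CK, 7.47, 5.76 and 3.71 in M, 8.5, 10.8 and 12.7 in S, and 8.45, 9.08 and 7.54 in SM. No treated library came near the CK level. The log2 fold changes were 5.79 ± 1.34 in M vs. CK (adjusted p = 0.684, unadjusted p = 0.00145 in edgeR's quasi-likelihood test), 6.78 ± 1.39 in S vs. CK (adjusted p = 0.046), 6.39 ± 1.37 with both agents (adjusted p = 0.0839) and 3.69 ± 0.85 for the overall salt effect (adjusted p = 0.033). With 1 library left out, the adjusted p stayed below 0.05 in 1 of 6 fits for S vs. CK. For the last value it did so in 3 of 12 fits. The 3 comparisons with CK rest on 12 reads in CK, all in CK3, and without CK3 the fitted values in M, S and SM vs. CK were 10.8, 11.8 and 11.4, which are no measure of size because CK then holds no read. A like copy, MS.gene29028, lies 52.1 kb away on the same chromosome and was at 11.9, 8.1 and 11.5 FPKM in CK, 9.19, 10.4 and 8.53 in M, 10.1, 11.6 and 15.8 in S, and 10.3, 10.5 and 11 in SM. The sum of both copies was 10.6 ± 2.17 FPKM in CK and 15 ± 2.43 in M, with 23.1 ± 4.97 in S and 18.95 ± 0.536 in SM. The 4 models of their annotation, summed, were higher by 0.99 ± 0.26 on the log2 scale in S vs. CK (adjusted p = 0.0306), just under 2-fold. Whether reads moved between the copies was not tested.

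**Figure D3:**
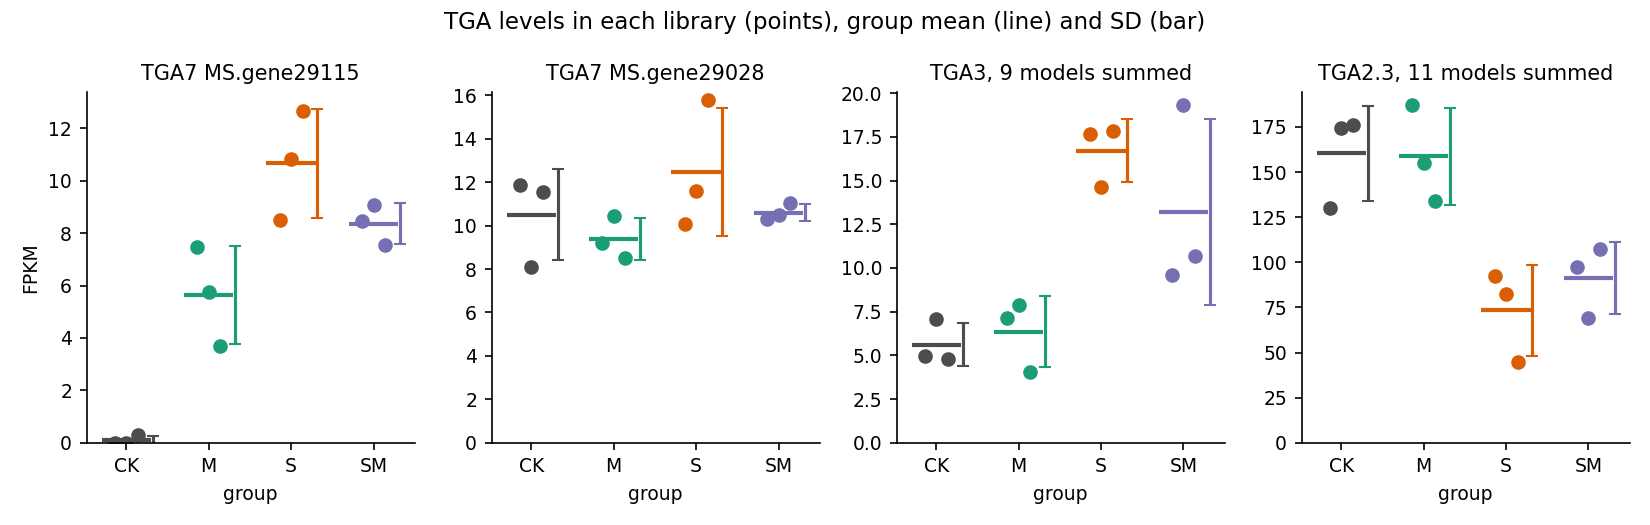
FPKM in each library for the TGA7 models MS.gene29115 and MS.gene29028 and for the summed TGA3 (9) and TGA2.3 (11) models, by group. Points are libraries, lines are means and bars are SD (n = 3). MS.gene29115 was at 0 to 0.302 in CK and at 3.71 to 12.7 elsewhere, while its neighbour kept to 8.1 to 15.8 in every library.

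PR1, the output marker, was carried by few models. Of the 50, 34 held no count and 4 were tested, all annotated from Medicago truncatula. Of these, 3 share the annotation pathogenesis-related protein 1 and lie on copies 2.1, 2.2 and 2.4 of chromosome 2, and they passed for the overall salt effect in the lower direction. Of these, MS.gene038936 and MS.gene00249 reached the required level only without salt, so their passing is no support beyond the values themselves. Among the 2 PR1 models with the level on both sides, 0 passed with salt alone, 0 with both agents and 1 for the overall salt effect. The most abundant, MS.gene071870 (2.2, 53334188 to 53336327), was at 26, 23.8 and 108 FPKM in CK, 2.65, 46.7 and 63.2 in M, 3.67, 15.5 and 0.0926 in S, and 11.7, 4.13 and 2.78 in SM. M1 was as low as the salt libraries, and the other 5 libraries without salt were above all 6 with salt. Its overall log2 fold change was -2.79 ± 1.06 (adjusted p = 0.156), and it did not pass in S vs. CK (-2.97 ± 1.5, adjusted p = 0.377) or with both agents (-3.04 ± 1.51, adjusted p = 0.438). The overall call was lost without CK3 (-2.28), M3 (-2.45), S1 (-2.67), SM2 (-2.67) or SM3 (-2.61).

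MS.gene038936 (2.4, 55624880 to 55625431) was at 11.5, 18.9 and 108 FPKM in CK, 1.34, 11 and 21.2 in M, 1.06, 0.0371 and 0.208 in S, and at 0 in all 3 SM libraries. It was lowest in SM, intermediate in S and highest in CK and M, and the libraries with and without salt did not overlap. Against the floor of 3 counts per library, it was at least 503-fold lower in SM than in CK and at least 5.17-fold lower in SM than in S. The S vs. CK log2 fold change was -6.59 ± 1.63 (adjusted p = 0.0957). For the overall salt effect the adjusted p was 0.011, and no fitted size is given because SM holds no read. MS.gene00249 (2.1, 57363643 to 57364194) was at 5.14, 3.9 and 15.3 FPKM in CK, 2.64, 27.8 and 46 in M, 0.558, 0.0371 and 0 in S, and 0, 0.127 and 0 in SM. Here too the highest salt library lay below the lowest library without salt. It fell by -5.20 ± 1.76 in S vs. CK (adjusted p = 0.174), -7.45 ± 2 with both agents (adjusted p = 0.145) and -7.17 ± 1.38 for the overall salt effect (adjusted p = 0.0167), where all S libraries together held 23 reads and all SM libraries 4. The adjusted p for the overall salt effect stayed below 0.05 for MS.gene038936 and MS.gene00249 whichever library was left out. Both models reached the required level only without salt, so this adds no support beyond the values themselves.

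Library CK3 held most of the PR1 reads of its group, with a PR1 sum of 233 FPKM against 53.5 in CK1 and 47.9 in CK2. Without CK3 the S vs. CK log2 fold change moved to -5.06 for MS.gene038936 and to -4.42 for MS.gene00249. Summed over its 22 models, the annotation pathogenesis-related protein 1 fell by -3.36 ± 0.81 for the overall salt effect (adjusted p = 0.0132). The fourth tested model, MS.gene018353 on chromosome 8.2, carries the other wording, PR-1, and followed no such pattern: it was at 6.33, 0.164 and 0.774 FPKM in CK, 5.98, 0.632 and 0 in M, 3.09, 0 and 7.68 in S, and 0.897, 0.915 and 0 in SM, with an overall log2 fold change of -0.59 ± 1.59 (adjusted p = 0.902).

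**Figure D4:**
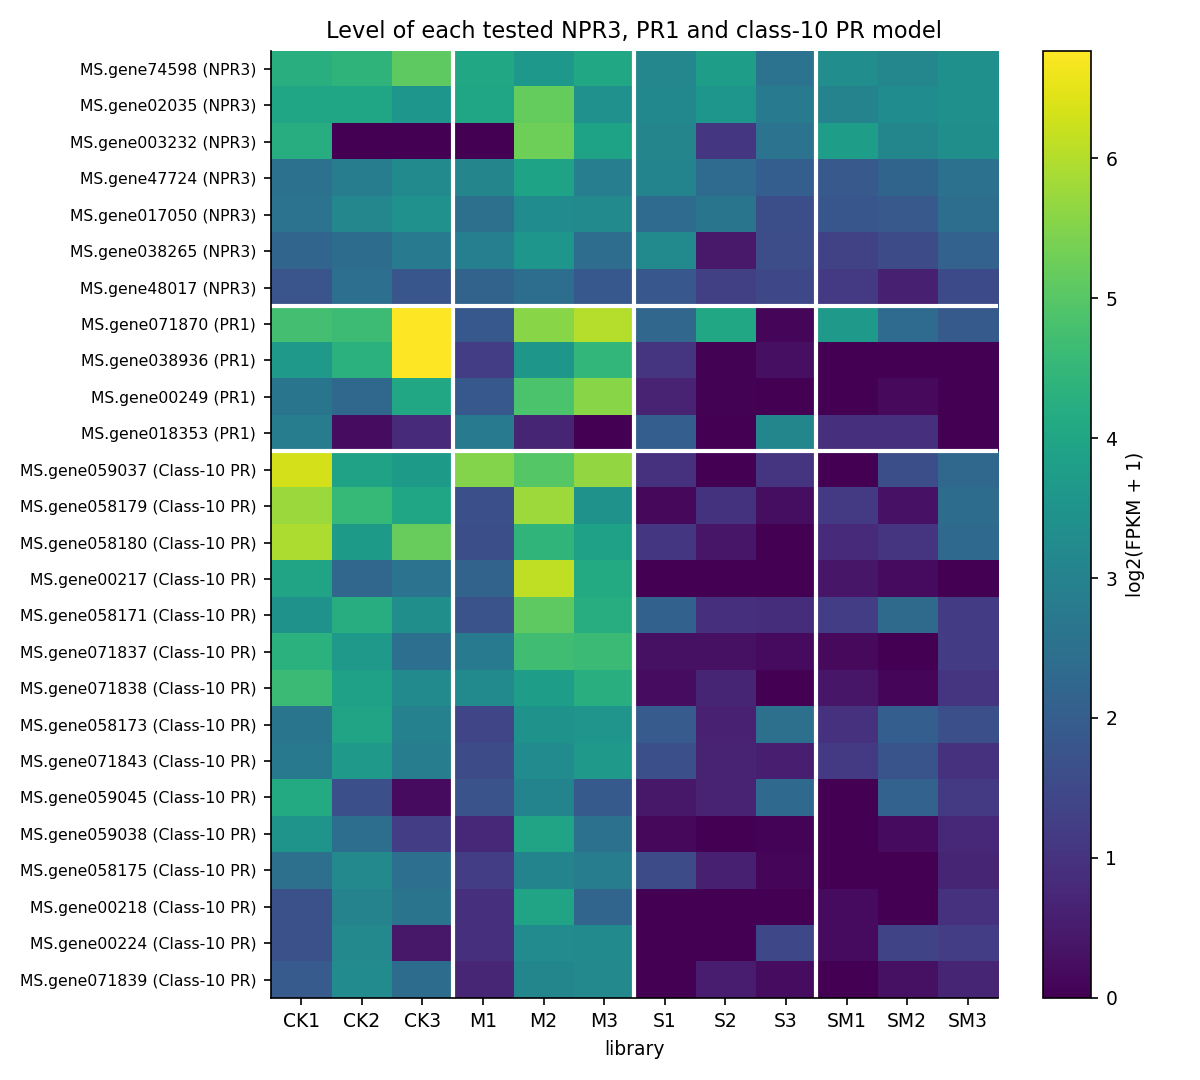
Level, log2(FPKM + 1), of the 26 tested NPR3, PR1 and class-10 PR models (rows, ordered by mean within a family) in the 12 libraries (columns, grouped CK, M, S, SM). Dark cells are low. The class-10 PR rows darken from the 6 libraries without salt to the 6 with salt, and MS.gene038936 is at 0 in the 3 SM libraries.

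The 19 PR10 models, which share text but not family with PR1, held the largest loss with salt. Of the 15 tested, 11 passed with salt alone, 13 with both agents and 13 for the overall salt effect, all lower, and 10 of the last had an adjusted p below 0.05, where the background in that direction is 3.06%. Restricted to the 7 models with the required level on both sides, 5, 6 and 6 passed, and 5 of the last had an adjusted p below 0.05. The other 8 reached the level only without salt, so a low value with salt is partly built into their entry. The median log2 fold change of all 15, these 8 included, was -5.67 for salt alone (-5.24 with the model at 0 in S set to its bound), -4.12 for both agents and -4.38 for the overall salt effect. When 1 library was left out, the lower calls numbered 10 to 11 for salt alone, 6 to 11 for both agents and 12 to 14 for the overall effect, whose count at an adjusted p below 0.05 was 4 to 9. The count for both agents was 8 without CK2, 6 without SM1 and 7 without SM2, and the last count was 4 without CK3, M2, S3 or SM1.

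The most abundant PR10 model, MS.gene059037 (chromosome 2.4, 56076908 to 56077656), was at 80.2, 14 and 11.8 FPKM in CK, 44.5, 30.7 and 49.9 in M, 0.96, 0 and 1.06 in S, and 0, 2.08 and 3.91 in SM. Every library without salt was above every library with salt. It fell by -5.67 ± 1.87 in S vs. CK (adjusted p = 0.164) and -5.03 ± 1.28 overall (adjusted p = 0.046). The last adjusted p stayed below 0.05 in only 1 of the 12 fits that left out 1 library. MS.gene00217 (2.3, 55774151 to 55775404) had the smallest p of all PR10 models: it was at 14.5, 3.75 and 4.97 FPKM in CK, 3.44, 69.2 and 16.7 in M, 0, 0 and 0.0162 in S, and 0.334, 0.147 and 0 in SM. A single read was left in the S libraries, so in counts, scaled by library size and not by length as FPKM is, CK was 693 times S with a 95% counting interval of 124 to 27400. The overall log2 fold change of MS.gene00217 was -8.17 ± 1.23 (adjusted p = 0.00609). Its neighbour MS.gene00218 (2.3) was at 2.23, 7.17 and 5.13 FPKM in CK, 0.912, 14.6 and 3.61 in M, 0 in all S libraries, and 0.152, 0 and 0.965 in SM. CK was at least 37.8-fold above S, and the overall salt effect had an adjusted p of 0.0269, with no fitted size given because S holds no read. MS.gene00217 and MS.gene00218 reached the required level only without salt, so their p-values are no support beyond the values themselves.

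On copy 2.1, MS.gene058180, annotated as the alfalfa protein MSPR10-1, was at 59.8, 12 and 35.8 FPKM in CK, 2.1, 20.4 and 13.7 in M, 1.12, 0.326 and 0 in S, and 0.734, 1.04 and 4.01 in SM, and fell by -4.38 ± 1.02 overall (adjusted p = 0.0342). MS.gene058179 (2.1) was at 52.5, 22.3 and 15.1 FPKM in CK, 2.13, 53.7 and 9.87 in M, 0.107, 0.974 and 0.2 in S, and 1.22, 0.26 and 4.23 in SM, with -4.74 ± 1.01 overall (adjusted p = 0.0243). In both, M1 was the one library without salt inside the salt range. With 1 library left out, the adjusted p stayed below 0.05 in 5 of 12 fits for MS.gene058180 and 9 of 12 for MS.gene058179. On copy 2.2, MS.gene071837 had 19.1, 11.6 and 4.54 FPKM in CK, 6.01, 24.7 and 23.6 in M, 0.246, 0.241 and 0.14 in S, and 0.136, 0 and 1.31 in SM. MS.gene071838 beside it had 23.3, 13.6 and 8.37 in CK, 8.34, 12.6 and 18.4 in M, 0.161, 0.628 and 0 in S, and 0.337, 0.0845 and 1.06 in SM. Neither gene had a salt library within reach of a library without salt, and their overall log2 fold changes were -5.44 ± 1.01 (adjusted p = 0.0147) for MS.gene071837 and -5.22 ± 0.95 (adjusted p = 0.0133) for MS.gene071838. Both genes reached the required level only without salt, so these p-values add no support beyond the values themselves.

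The other 6 PR10 models that passed overall had log2 fold changes from -5.36 for MS.gene059038 to -1.78 for MS.gene058173. MS.gene058171 (2.2) was at 10.2, 17.4 and 9.41 FPKM in CK, 2.3, 33.1 and 17.6 in M, 3.32, 0.903 and 0.85 in S, and 1.36, 4.09 and 1.31 in SM. MS.gene071843 (2.2) was at 5.62, 11.4 and 6.11 in CK, 1.9, 8.66 and 11.5 in M, 2.13, 0.601 and 0.488 in S, and 1.21, 2.38 and 0.952 in SM. In both, M1 again fell among the salt libraries, and the overall log2 fold changes were -2.88 ± 0.68 (adjusted p = 0.0348) for MS.gene058171 and -2.54 ± 0.6 (adjusted p = 0.035) for MS.gene071843. With 1 library left out, these adjusted p stayed below 0.05 in 3 and 2 of 12 fits.

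MS.gene058173 (2.2) was at 5.24, 14.4 and 6.85 FPKM in CK, 1.67, 10.2 and 10.5 in M, 2.82, 0.537 and 4.61 in S, and 0.953, 3.05 and 2.13 in SM. MS.gene058175 (2.1) was at 4.7, 8.08 and 4.52 in CK, 1.34, 7.36 and 6.24 in M, 1.99, 0.52 and 0.0793 in S, and 0, 0 and 0.631 in SM. Both overlapped between salt and no salt through M1, and their overall values were -1.78 ± 0.65 (adjusted p = 0.142) for MS.gene058173, which without CK2 was -1.52 and not past the thresholds, and -3.62 ± 1.19 (adjusted p = 0.107) for MS.gene058175. MS.gene059038 (2.4) was at 10.3, 4.41 and 1.33 FPKM in CK, 0.701, 14.4 and 4.91 in M, 0.115, 0 and 0.0402 in S, and 0, 0.146 and 0.723 in SM. MS.gene071839 (2.2) was at 2.82, 8.57 and 4.28 in CK, 0.649, 7.56 and 8.02 in M, 0, 0.436 and 0.163 in S, and 0, 0.232 and 0.639 in SM. M1 lay just below SM3 for MS.gene059038 and just above it for MS.gene071839, and the overall changes were -5.36 ± 1.27 (adjusted p = 0.036) for MS.gene059038 and -4.36 ± 1.21 (adjusted p = 0.0625) for MS.gene071839. With 1 library left out, the adjusted p of MS.gene059038 stayed below 0.05 in 2 of 12 fits. MS.gene058175, MS.gene059038 and MS.gene071839 also reached the required level only without salt. The 2 tested models that did not pass in any comparison were MS.gene00224 with -2.53 ± 1.37 (adjusted p = 0.33) and MS.gene059045 with -1.66 ± 1.25 (adjusted p = 0.518).

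The wording of the annotation went with the size of the fall. The 8 tested models named class-10 pathogenesis-related protein 1 all passed for the overall salt effect, with log2 fold changes between -8.17 and -4.36, whereas the 6 named 1-like ranged from -3.62 to -1.66 and 4 passed. The level filter did not bear alike on both names. Under the first name, MS.gene00217, MS.gene00218, MS.gene071837, MS.gene071838, MS.gene059038 and MS.gene071839 reached the required level only without salt. Among the 1-like models that passed, MS.gene058175 did. A low value with salt is thus partly built into the entry of more models under the first name. Summed counts gave -5.27 ± 0.58 (adjusted p = 0.000248) for the first annotation and -2.48 ± 0.54 (adjusted p = 0.00791) for the second, and the difference between them was not tested. For the first, the summed level was 204.9, 85.3 and 55.5 FPKM in CK, 66.7, 227 and 135 in M, 1.59, 2.28 and 1.62 in S, and 2.18, 2.95 and 12.8 in SM. CK1 and M2, the 2 libraries with the most nodule marker signal, also held the highest PR10 sums (309 and 325 FPKM). With CK1 left out, the overall fold change of the first annotation was -4.9, its smallest value among the fits without 1 library, and its adjusted p was at most 0.0012 in all 12 such fits.

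All 19 PR10 models lie on chromosome 2, in 1 cluster per chromosome copy (map of the clusters). The clusters span 31.6 kb on copy 2.1 (4 models), 110.9 kb on 2.2 (7 models), 43.1 kb on 2.3 (4 models) and 66.8 kb on 2.4 (4 models). On each copy the model at the low-coordinate end was a 1-like model (MS.gene058175, MS.gene058173, MS.gene00224 and MS.gene059045) and had the smallest fall of its cluster. The 3 PR1 models that passed are the neighbours of these clusters: MS.gene00249 lies 319.6 kb from the cluster on 2.1, MS.gene071870 362.3 kb on 2.2 and MS.gene038936 385.4 kb on 2.4. No PR1 model lies within 1000 kb of the cluster on 2.3. Inside the 4 spans, 7 other models were tested, and 5 of them passed in the lower direction, against a background of 8.12%. Whether they reached the required level on both sides was not counted. A low value with salt can thus be partly built into the entry of these 5 models. They were named after their values were seen: a harvest-induced protein, MS.gene058172 (2.2), with a mean of 110 FPKM, was lower with salt by a log2 fold change of -2.75 (adjusted p = 0.0162), a Bet v I type allergen, MS.gene058169 (2.2), by -2.52 (adjusted p = 0.0525), and the disease-resistance response proteins MS.gene071842 (2.2), MS.gene00223 (2.3) and MS.gene059044 (2.4) by -7.96, -5.61 and -5.52 (adjusted p = 0.0438, 0.112 and 0.207).

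**Figure D5:**
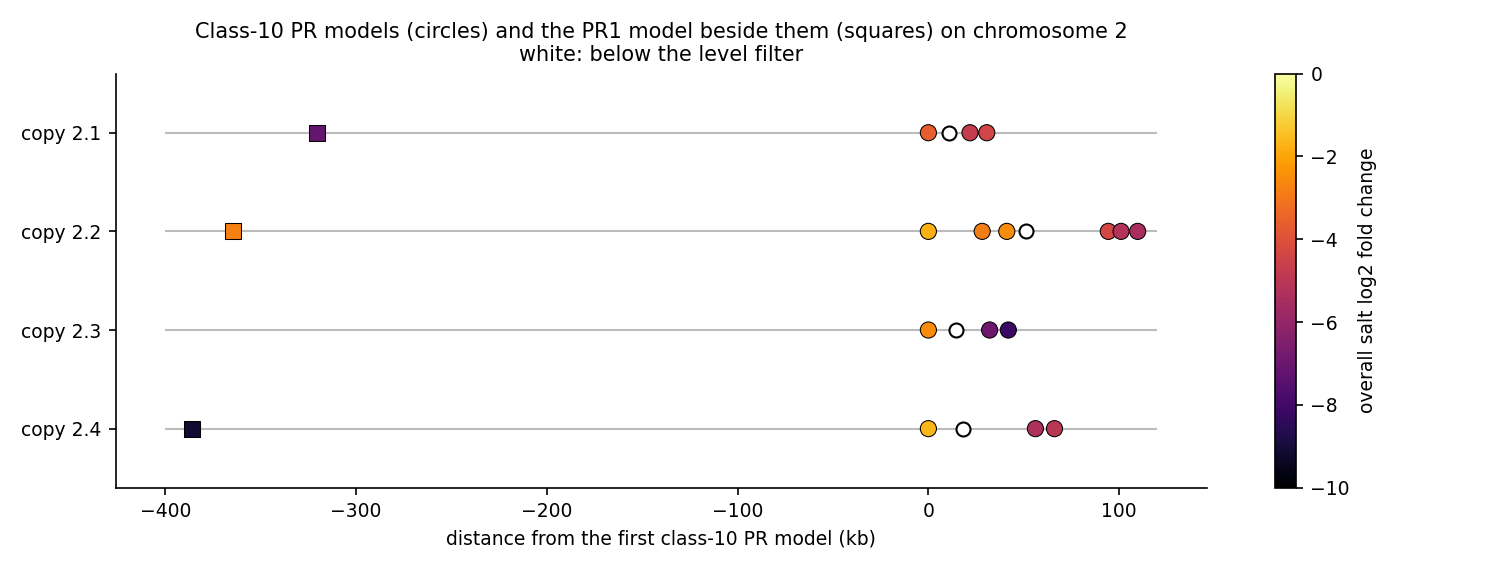
Position of the 19 class-10 PR models (circles) and the PR1 model nearest to them (squares) on the 4 copies of chromosome 2, as distance in kb from the first class-10 PR model, coloured by the overall salt log2 fold change. White circles are models below the required level. The first circle on each copy shows the smallest fall (-3.62, -1.78, -2.53 and -1.66).

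Melatonin moved few of these genes. In M vs. CK, 1 of the 50 models passed (background 4.82%, higher only 2.87%), MS.gene29115, described above. SM vs. S, which asks what melatonin did in leaves under salt, gave 2 (background 4.77%): MS.gene038936 (PR1) was lower (background 2.45%) and MS.gene00218 (PR10) higher (2.31%) in SM, the latter by at least 2.92-fold over the floor. The rise of MS.gene00218 rests on 27 reads and was lost without SM3 (4.05), and its fitted log2 fold change had an adjusted p of 0.839, as did the fall of MS.gene038936 in edgeR's quasi-likelihood test. Over all 8 models of its annotation, the PR10 sum rose by 1.62 ± 0.72 on the log2 scale in SM vs. S (adjusted p = 0.544), and was not past the thresholds without SM3 (0.44), whose level was 12.8 FPKM, or without S1 (1.53), S2 (1.79) or S3 (1.56). The overall melatonin effect was passed by 4 models (background 3.85%): MS.gene29115 (2.7 ± 0.82), MS.gene00217 (2.68 ± 1.04) and MS.gene00218 higher (background 2.04%) and MS.gene038936 lower (1.81%), the last 2 with no size given because a group holds no read, with adjusted p between 0.758 and 0.819. A different response to melatonin with and without salt passed in 3 models (background 5.99%), with a lower response under salt for MS.gene29115 (-6.18 ± 1.66) and MS.gene88455 (-1.14 ± 0.51), where the background is 3.39%, and a higher one for MS.gene00218, where it is 2.6%. When 1 library was left out, the rise of MS.gene00217 was lost without CK2 (2.52), CK3 (2.55), M2 (1.98), S1 (2.45), S2 (2.47) or SM1 (2.12), and that of MS.gene00218 without CK1 (3.07), M2 (2.56) or SM3 (2.19), fitted values that are no measure of size. Both models called in SM vs. S, and 3 of the 4 for the overall melatonin effect, reached the required level only without salt, as did MS.gene00218 among the 3 for the interaction. None of the 50 reached an adjusted p below 0.05 in M vs. CK (background 0.0118%), SM vs. S (0.0177%), the overall melatonin effect (0.0216%) or the interaction (0.0275%) by edgeR, where the numbers below an unadjusted p of 0.05 were 1, 2, 4 and 3. DESeq2 gave 1, 2, 3 and 2 at an adjusted p below 0.05, where 855, 816, 916 and 965 of all 50931 models passed by DESeq2.

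Other genes of the pathway were counted from lists of annotation words, for the overall salt effect, where 8.12% of all tested models were lower and 7.92% higher. Of the 44493 models with the required level on both sides, 2756 were lower and 2865 higher. Upstream, the lipase-like regulators EDS1 and PAD4 gave 3 lower and 0 higher of 10 tested (3 of the 8 with the required level on both sides), among them PAD4 MS.gene49701, at 65.4 ± 2.67 FPKM in CK and 120.2 ± 64.8 in M, then 25.4 ± 9.04 in S and 17.9 ± 10.48 in SM (log2 fold change -2.02 ± 0.37, adjusted p = 0.0139). Calmodulin-binding CBP60 proteins, some of which switch on salicylate synthesis in Arabidopsis, gave 10 lower of 25 (6 of 20 on both sides), although their most abundant model, MS.gene035694, did not change past the thresholds (-0.19 ± 0.17, adjusted p = 0.585). NDR1-like proteins gave 14 lower of 40 (9 of 30). Of the synthesis routes, isochorismate synthase and its partners gave none of 3 past the thresholds, and phenylalanine ammonia-lyase 4 lower of 8 (0 of 2). Enzymes that modify salicylate, or bind it, gave 3 higher and 3 lower of 20 (2 and 1 of 16). No annotation matched the words listed for NIMIN proteins, the inhibitors of NPR1. Whether the NPR1 interactor MS.gene07344 is one of them was not tested.

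Downstream, glutaredoxins, small redox enzymes of which some bind TGA factors in Arabidopsis, gave 9 higher and 0 lower of 39 (9 of 37 on both sides), with 4 at an adjusted p below 0.05, and 14 higher in S vs. CK (13 of 37), where 7.79% of all models were. In S vs. CK, 3078 of the 44493 models with the level on both sides were higher. WRKY factors tied to salicylate gave 4 lower of 15 (2 of 10), with WRKY50 MS.gene066525, which acts on the PR1 promoter together with TGA factors in Arabidopsis, at 29.99 ± 12.97 FPKM in CK and 36.7 ± 17.5 in M, then 3.68 ± 2.91 in S and 3.38 ± 1.25 in SM (-3.18 ± 0.58, adjusted p = 0.0135). Among the PR proteins of other classes, PR2 glucanases gave 4 lower of 8 (4 of 8 on both sides, 1 at an adjusted p below 0.05). PR3 and PR4 chitinases gave 17 lower of 44 (10 of 31), with 0 at an adjusted p below 0.05 by edgeR. PR5 thaumatin-like proteins gave 20 lower and 4 higher of 41 (12 and 4 of 26), of which 3 lower and 3 higher had an adjusted p below 0.05. Their median log2 fold changes were -1.47, -2.3 and -2.5, beside 0.03 over all models tested. The last 2 medians take in models that reached the required level on only 1 side, which can enlarge them.

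Replicates differed most in the output genes. The median coefficient of variation within a group was 1.16 for the 4 tested PR1 models and 0.891 for the PR10 models, against 0.445 for TGA and 0.359 for NPR3. Summing by annotation lowered it to 0.93 for PR1, 0.614 for PR10, 0.255 for TGA and 0.311 for NPR3. On the summed counts, 9 of the 18 annotations had an adjusted p below 0.05 for the overall salt effect (background 22.8%), 7 of them lower and 2, TGA3 isoform X2 and TGA7, higher. In S vs. CK, 5 did (background 12.2%), and in SM vs. CK, 1 did (background 7.31%), the class-10 pathogenesis-related protein 1 sum.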

How the data were processed

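The deposited table gave, for each gene model and library, an estimated count and an FPKM value. According to the labels and the study's methods, the authors trimmed reads with Cutadapt, mapped them with HISAT2 2.0.4 and assembled and quantified with StringTie. How the deposited expected (estimated) counts were made, how multi-mapping reads were treated and the genome build are not given in the sources used here. Coordinates are those of the table. The deposited FPKM values were scaled to model length and library size, with 0 written as a small constant by the authors.

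Counts, whole numbers as deposited, were fitted in edgeR 4.0.16 (R 4.3.3; TMM, quasi-likelihood test, 12 libraries, 4 group means) over the 50931 models that averaged 1 FPKM or more, with Benjamini-Hochberg adjustment over all of them. Overall effects and the interaction were contrasts of the same fit. Each SE was calculated back from the test, as the absolute log2 fold change divided by the square root of the F statistic. It is therefore not a separate estimate, and it is least reliable where a side holds few reads. The fit was first tested on simulated data with a dispersion of 0.1. Of 200 models changed 4-fold, 189 were recovered at an adjusted p below 0.05, with 8 false calls. PR1 and PR10 models varied more between replicates, so this simulation does not test the fit for them. P-values set a group difference against the spread between replicate libraries, estimated over the 4 groups and moderated across models. Alternatives were DESeq2 1.42.0, its size factors, other level filters, only the libraries compared, the replicate number as a block, annotation sums and leaving out each library. Members, lists and tests were chosen with earlier results of these data known, and the PR10 models were set apart after matching. Named with values were the tested models past the thresholds in any of 7 comparisons, the most abundant of each family, and the members in the study's table of hormone genes. Counting intervals cover counting error only.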

Additional observations from a re-analysis of the deposited data

Results flagged for a closer look

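Of the 50 tested models, 3 had a response to melatonin that differed between leaves with and without salt, by the interaction term of edgeR's fit and the thresholds used above. None had an adjusted p below 0.05, and the share of all tested models past the same thresholds was 5.99%.

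MS.gene29115 (TGA7) had an interaction of -6.18 ± 1.66 on the log2 scale (adjusted p = 0.653, edgeR's quasi-likelihood test). It was at 0.101 ± 0.174 FPKM in CK and 5.65 ± 1.88 in M, then 10.7 ± 2.09 in S and 8.36 ± 0.775 in SM, so the melatonin difference was seen without salt and not with it. The value ranged from -11.2 to -5.61 when 1 library was left out, past the thresholds in all 12 such fits, and its size depends on the 12 reads in CK3.

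MS.gene00218 (PR10) had an interaction of 5.83 ± 2.36 (adjusted p = 0.792, edgeR's quasi-likelihood test), with 4.84 ± 2.48 FPKM in CK and 6.37 ± 7.25 in M, then 0 in S and 0.372 ± 0.519 in SM. The fitted value is no measure of size because S holds no read. It passed in 4 of the 12 fits without 1 library, and without SM3 it was 3.73.

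MS.gene88455 (TGA2.2, chromosome 8.3) had an interaction of -1.14 ± 0.51 (adjusted p = 0.806, edgeR's quasi-likelihood test). Its level was 48.7, 24.5 and 33.1 FPKM in CK, 38.5, 74.8 and 62.8 in M, 26.1, 41.5 and 44.2 in S, and 32, 21.8 and 31.2 in SM. It passed in 3 of the 12 fits, and without CK2 it was -0.94.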

How the results depend on the processing

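For the 91 single fold changes past the thresholds, 1200 refits gave no reversal, 1064 stayed past the thresholds and 136 did not. Counts of models past the thresholds, in the order melatonin alone, salt alone, both agents (each against CK), SM vs. S, overall salt, overall melatonin and interaction, were 1, 17, 21, 2, 23, 4 and 3. With no filter on low values they moved to 6 for melatonin alone, 4 in SM vs. S and 10 for the interaction, with a mean FPKM of at least 5 to 1 in SM vs. S and 14 for overall salt, with only the libraries compared to 1 in SM vs. S, and with DESeq2 to 4 in SM vs. S and 6 for the interaction. With no filter 114 members were tested, and 4553, 4461 and 6253 of all 105630 models passed in the same order. With a mean FPKM of at least 5, 1113 and 4202 of 24336 passed. With only the libraries compared 1955 of 50931 passed, and with DESeq2 3402 and 4270. At an adjusted p below 0.05 in the main fit, the member counts were 0, 2, 0, 0, 14, 0 and 0. As annotation sums past the thresholds they were 0, 6, 6, 1, 7, 0 and 0. Of all 15402 annotation sums, 574, 2611, 2116, 615, 2603, 402 and 913 passed the thresholds. For the members' sums, an adjusted p below 0.05 left 1 for both agents and 0 in SM vs. S. DESeq2 gave 1 for the interaction, beside 1142 of all 15402. Leaving out 1 library gave 1 to 3, 16 to 20, 13 to 18, 2 to 3, 19 to 26, 2 to 5 and 1 to 5 models, and 0 to 1, 5 to 10, 5 to 7, 0 to 1, 5 to 9, 0 to 1 and 0 to 1 annotation sums. Deviations of same-numbered libraries correlated between -0.082 and 0.045, and those of other pairs between -0.0668 and 0.0684, so no pairing by number was seen. The study repeated its experiment 3 times, and this measure cannot exclude that same-numbered libraries share a repeat. With the replicate block the interaction had 1 model and SM vs. S 0 annotation sums, and the overall salt count stayed at 23, of which 5 instead of 14 had an adjusted p below 0.05. The cause of these differences was not tested, except that the filters change how many models are tested. With 3 libraries a group and most tested PR1 and PR10 models at a few reads under salt, the size of their changes is uncertain. For those that reached the required level only without salt, a low value with salt is partly built into their entry.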
